A study of Mus musculus with 6 samples.

Results

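The nuclear genes for the subunits of respiratory complexes II, III, IV and V, with cytochrome c, were followed in cultured primary acinar cells from mouse pancreas. These exocrine cells make digestive enzymes. The members were Sdha, Sdhb, Sdhc, Sdhd, Cyc1, Cycs and every gene whose symbol begins with Uqcr, with Cox4 to Cox8 or with Atp5, pseudogenes left out. They numbered 49 of the 23237 symbols in the count tables: 4 of complex II, 9 of complex III, 1 for cytochrome c, 18 of complex IV and 17 of complex V. Of these, 45 had enough counts to be tested. The filter works on library totals, and 5 of the 45 (Cox6a2, Cox6b2, Cox7a1, Atp5s and Atp5sl) met it only through the cKO libraries. The study compared 3 control libraries, labelled wild type, with 3 libraries of a conditional knock-out (cKO) labelled ERRgamma -/-, for the nuclear receptor estrogen-related receptor gamma (gene Esrrg). All animals were of strain C57BL/6J. In both groups the medium (Waymouth's) held human epidermal growth factor, serum, antibiotics and a trypsin inhibitor. RNA was counted by 3' tag sequencing (Lexogen QuantSeq), in which a transcript is read once, close to its poly(A) tail. The sources used here give neither the age nor the sex of the animals, nor how the gene was deleted, nor the culture time. Whether the numbered libraries stem from separate animals is also not stated, so that p-values measure the spread between libraries only, which may be technical spread.

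The respiratory chain of the inner mitochondrial membrane passes electrons to oxygen and uses the energy to pump protons. Complex II (succinate dehydrogenase) oxidises succinate and reduces ubiquinone, complex III passes electrons from ubiquinol to the small carrier protein cytochrome c, complex IV (cytochrome c oxidase) reduces oxygen to water, and complex V (ATP synthase) lets the protons flow back to make ATP. Acinar cells use this ATP for protein synthesis and for calcium-driven secretion. The nuclear genes for these subunits are known targets of estrogen-related receptors and of the factors NRF1 and GABP. Several small subunits of complex IV exist in a widely expressed form and in a form known from heart and skeletal muscle (Cox6a2, Cox7a1, Cox8b), from lung and smooth muscle (Cox4i2) or from testis (Cox6b2, Cox7b2, Cox8c). Subunits that the mitochondrial genome encodes were not analysed here.

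Library totals ran from 23.0 to 25.2 M counts in control and from 15.2 to 17.0 M in cKO. A list of digestive enzyme and granule protein genes, the ribosomal RNA gene Rn45s and Casp9 took 91.8 to 92.4% of the control counts and 28.7%, 63.3% and 33.0% of the counts of cKO replicates 1, 2 and 3, so cKO replicate 2 lay nearer to the controls. TMM scaling, which takes most genes as unchanged, therefore gave effective library sizes of 7.53 to 8.50 M in control and 33.2 to 60.01 M in cKO. Casp9 alone held 610892 to 706713 counts in each control library, and whether these tags stem from its own transcript was not tested. The median log2 fold change of all 13132 tested genes was 0.10 on the TMM scale and 3.36 on library totals. Where a 3' end has a near-identical copy, reads can be split: of 48 members checked, 15 had such a copy in another gene, and 13 overlapped a gene on the opposite strand. Levels below are counts per M (CPM) of the effective library size unless library totals are named, and "rose" and "fell" are meant relative to the bulk of genes. All 8 acinar markers passed as lower in cKO on that scale and took 14.2 to 15.2% of control and 4.46 to 13.1% of cKO counts. Fibroblast or stellate markers passed as higher in 6 of 7 cases (summed level 722 to 816 CPM in control, 3550 to 5066 in cKO) and macrophage markers in 8 of 8 (103 to 145 CPM, 433 to 891 in cKO). Of all tested genes, 20.7% passed as lower and 24.0% as higher. Of 5 tested genes each, the endothelial list had 2 lower and 1 higher, the duct list 2 and 2, and the islet list 1 and 0. In the fat list, 1 of 2 tested genes passed as lower and 0 as higher. These marker shifts move with every group difference below, and their part in it was not tested. In bulk RNA, fewer cells of a type and less RNA per cell cannot be told apart.

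The subunit genes of all 4 complexes were lower in cKO relative to the bulk of genes, while on library totals every tested member was higher. There 45 of 45 passed as higher, as did 96.4% of all tested genes, with 0.404% lower. On the TMM scale 36 of the 45 tested members fell and 2 rose at an adjusted p under 0.05 (edgeR), against 20.7% and 24.0% of all tested genes. Both that rose, Cox6a2 and Cox6b2, are among the 5 that met the count filter only through the cKO libraries. The median of the members was -1.04 (log2), and 26 of the 36 that fell did so by at least 2-fold. The falls lay between -2.16 for Atp5g1 and -0.45 for Uqcr10, with adjusted p-values from 2.1e-06 to 0.0292. The CPM of the groups did not overlap for 38 members with cKO lower and for 2 with cKO higher, where 25.4% and 30.7% of all tested genes showed this. In 32 of the 36 members that fell, cKO replicate 2 had the highest CPM of the 3 cKO libraries. Neither this count nor that of 2-fold falls was made for all genes called lower, so neither is particular to the members. Without cKO replicate 2, the 36 kept their calls and 39 members passed as lower.

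**Figure D1:**
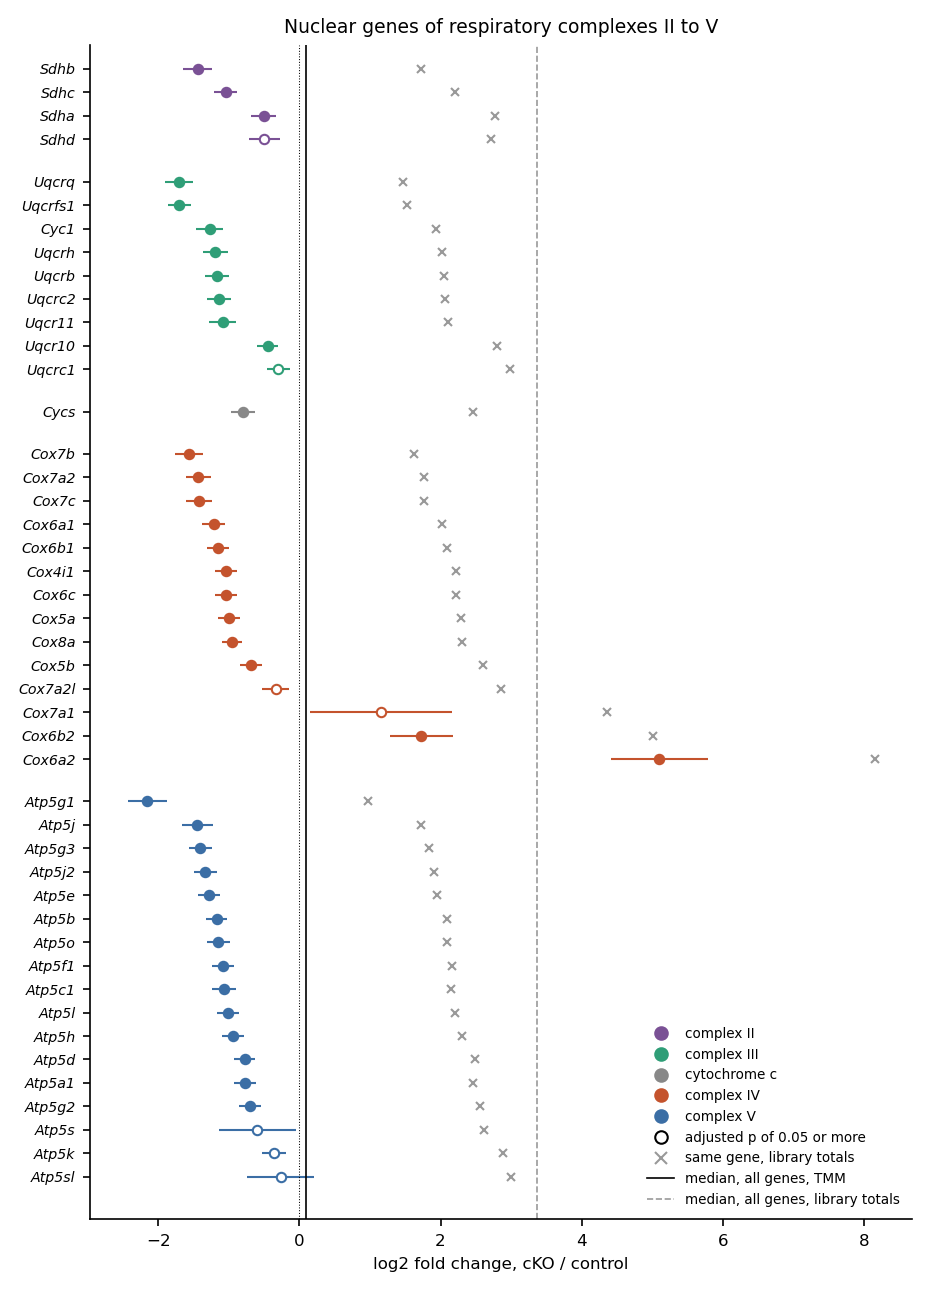
Log2 fold change of the 45 tested members between cKO and control, by complex, with the SE as bars (filled circles pass the edgeR test on the TMM scale; crosses give the same gene fitted on library totals). On the TMM scale all but Cox7a1, Cox6b2 and Cox6a2 lie below 0, and on library totals all crosses lie above 0, most of them left of the dashed median of all genes at 3.36.

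As percent of all library counts, the 49 members together took 0.113% (exact Clopper-Pearson 95% interval 0.111 to 0.114), 0.114% (0.113 to 0.116) and 0.120% (0.118 to 0.121) in control replicates 1, 2 and 3. In cKO replicates 1, 2 and 3 they took 0.557% (0.553 to 0.560), 0.357% (0.354 to 0.360) and 0.558% (0.554 to 0.561). Every cKO library was thus above every control library, by a ratio of means of 4.24. Each of the 45 tested members also had a higher share in all 3 cKO libraries than in any control library (exact 2-sided permutation p = 0.1 for each, the smallest that 3 against 3 allows; 0.107 adjusted), as did 96.9% of all tested genes. As percent of the counts outside the enzyme list, Rn45s and Casp9, the order was the opposite. There the members took 1.45% ± 0.0228 in control and 0.862% ± 0.0990 in cKO (SD, n = 3 each), and every cKO library lay below every control library.

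The proportions among the complexes lay close together in the 2 groups, a comparison that does not depend on how libraries are scaled. Of the summed counts of the 49 genes, complex V took 41.3% ± 0.772 in control and 41.2% ± 0.906 in cKO, complex IV 30.4% ± 1.17 and 31.9% ± 0.510, and complex II 5.49% ± 0.232 and 5.76% ± 0.378 (SD, n = 3 each). Those 3 shares, and that of cytochrome c (0.983% ± 0.164 and 1.25% ± 0.181), overlapped between the groups. Complex III took 21.8% ± 0.392 in control and 19.9% ± 1.10 in cKO and was the 1 complex whose groups did not overlap, with cKO replicate 2 at 21.1% just under the lowest control library at 21.3%. That difference of -1.86 percentage points turned to 0.69 when the 5 members of highest mean count (Atp5g3, Uqcrq, Cox6a1, Uqcrh and Atp5a1) were left out, and complex V then stood at -1.83 points. Complex III also had the most negative median of the 4 complexes on the TMM scale, -1.17, against -1.07 for complex V, -1.02 for complex IV and -0.78 for complex II. These shares count 3' tags of transcripts and say nothing of the proportions of the proteins.

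**Figure D2:**
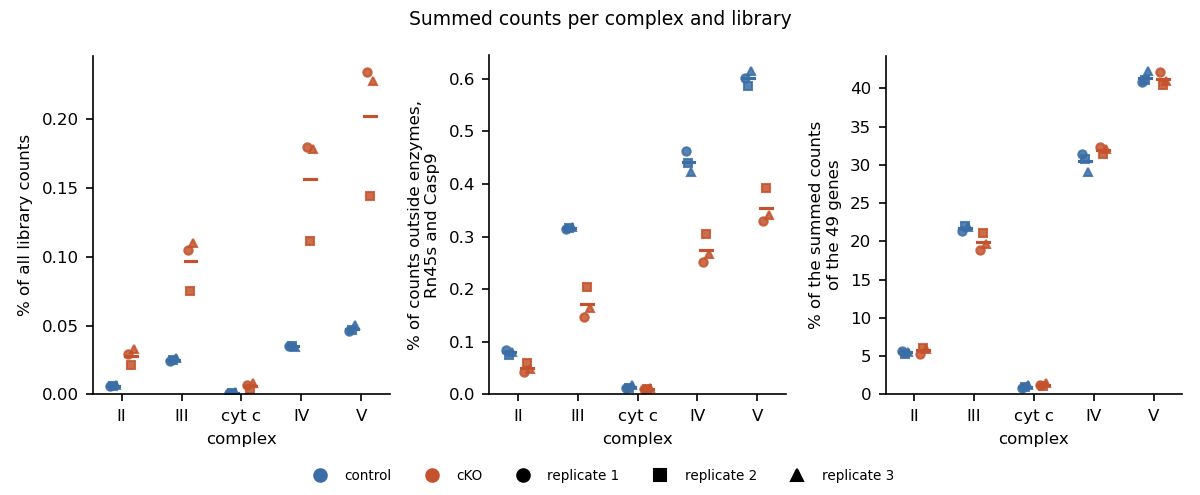
Summed counts of each complex in each library, as percent of all library counts (left), as percent of counts outside the enzyme list, Rn45s and Casp9 (middle) and as percent of the summed counts of the 49 genes (right); points are libraries and short bars are group means. The cKO points lie above the control points on the left and below them in the middle, and in the right panel only those of complex III lie apart from the controls.

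In complex II, 3 of the 4 genes fell on the TMM scale, against 20.7% of all tested genes. All 4 were higher on library totals, where 96.4% of all tested genes passed as higher. Sdhb (chromosome 4, 140961203 to 140979193, GRCm38) encodes the iron-sulfur subunit and was the most abundant of the 4 in control by tags. It stood at 118, 102 and 113 CPM in control and at 29.4, 55.8 and 37.5 CPM in cKO replicates 1, 2 and 3. The groups lay far apart, and the fold change was -1.44 ± 0.21 (log2, SE; edgeR adjusted p = 6.93e-05). Sdhc, one of the membrane anchors, stood at 30.02, 34.8 and 28.3 CPM in control and at 13.8, 16.2 and 15.2 CPM in cKO, a fold change of -1.04 ± 0.16 (adjusted p = 0.000119). Sdha, the flavoprotein that holds the succinate site, stood at 46.9, 29.3 and 38.3 CPM in control and at 25.6, 27.4 and 27.5 CPM in cKO. Its 3 control libraries were spread widely, with control replicate 2 close to the cKO libraries. The fold change of Sdha was -0.51 ± 0.18 (adjusted p = 0.0292), and its call was lost without control replicate 1 (-0.33; 0.177), control replicate 3 (0.0830), cKO replicate 1 (0.0645) or cKO replicate 3 (0.0768) and with a filter of 10 CPM in 3 or more libraries (0.157). Sdhd, the second anchor, stood at 13.0, 11.4 and 14.3 CPM in control and at 6.98, 10.9 and 9.63 CPM in cKO. These groups did not overlap, but the fold change of -0.50 ± 0.21 missed the threshold (adjusted p = 0.0737), though it passed as lower without cKO replicate 2 (-0.62; 0.0268).

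In complex III, 8 of 9 genes fell on the TMM scale, against 20.7% of all tested genes. All 9 were higher on library totals, where 96.4% of all tested genes passed as higher. Uqcrq, a small subunit that binds next to cytochrome b, stood at 269, 273 and 284 CPM in control and at 62.7, 109.9 and 80.2 CPM in cKO, the highest level of the complex by tags. It had the largest fall of the complex at -1.71 ± 0.20 (log2, SE; edgeR adjusted p = 1.16e-05). Uqcrfs1, the Rieske iron-sulfur protein that carries electrons from ubiquinol, stood at 51.9, 47.7 and 55.7 CPM in control and at 13.3, 18.2 and 16.3 CPM in cKO (-1.70 ± 0.17). Cyc1, the haem-bearing cytochrome c1 to which the Rieske protein passes its electron (chromosome 15, 76343523 to 76346260), stood at 32.9, 27.8 and 33.8 CPM in control and at 10.1, 15.8 and 13.2 CPM in cKO (-1.27 ± 0.19; adjusted p = 7.52e-05). Each of these 3 genes had non-overlapping groups. The hinge protein gene Uqcrh (-1.19), Uqcrb (-1.17), the core protein gene Uqcrc2 (-1.14), Uqcr11 (-1.09) and Uqcr10 (-0.45) fell as well. Of the 2 core proteins, Uqcrc1 stood at 34.0, 32.4 and 34.4 CPM in control and at 32.2, 26.3 and 23.4 CPM in cKO, and its fold change of -0.30 ± 0.16 did not pass (adjusted p = 0.151), while Uqcrc2 passed at 7.23e-05. The difference between these 2 genes was not tested. Pdzd9 overlaps Uqcrc2 on the opposite strand, and the 3' end of Uqcrc2 has a near-identical copy elsewhere, so its count is uncertain. The same holds for Uqcrb (3 copies) and Uqcrh (1 copy), each also overlapped on the opposite strand, and Uqcr11 has 1 copy. Uqcr10 lost its call without any 1 library other than cKO replicate 2 (adjusted p = 0.0530 to 0.105), with no filter (0.0597) and with the filter of 10 CPM (0.124).

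Cycs, which encodes the somatic cytochrome c itself (chromosome 6, 50562563 to 50566538), stood at 31.9, 30.7 and 40.9 CPM in control and at 17.5, 19.8 and 21.96 CPM in cKO. All cKO libraries were below all control libraries on the TMM scale, and above them on library totals. The fold change was -0.81 ± 0.17 (log2, SE; edgeR adjusted p = 0.0013). Cycs was thus called in the same direction as its reductase and its oxidase, with a smaller fitted change than Cyc1. That difference was not tested.

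**Figure D3:**
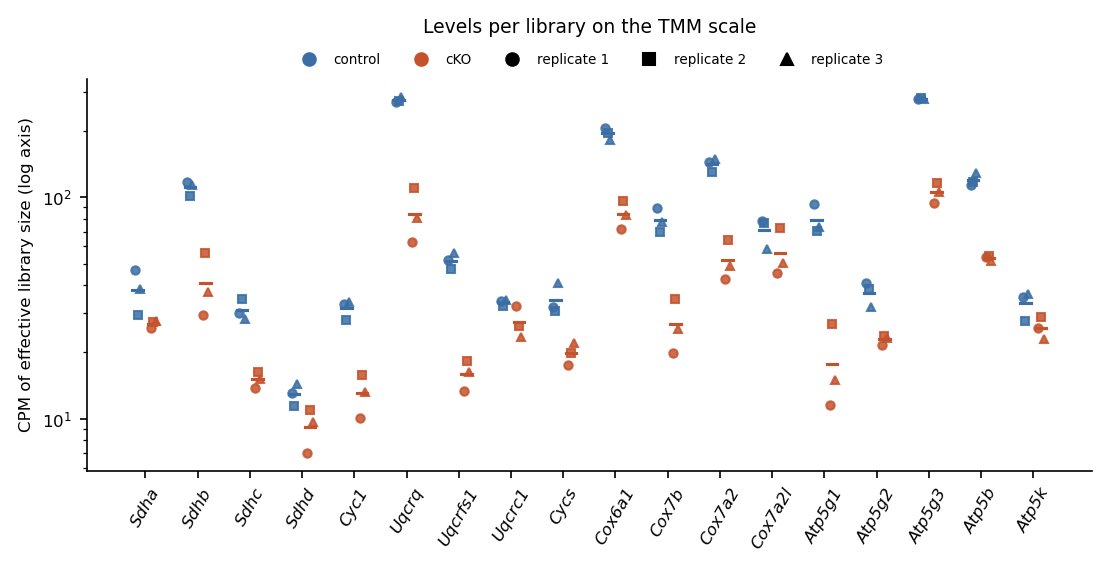
Level of 18 members in each library as CPM of the effective library size (log axis), with short bars at the group means. On this scale cKO points lie below control points for most genes, the groups of Cox7a2l and Atp5k overlap, and cKO replicate 2 (squares) often lies nearest to the controls; on library totals every cKO library lies above every control library for each gene shown.

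The widely expressed subunits of complex IV fell together on the TMM scale. They were all higher on library totals, where 96.4% of all tested genes passed as higher. Cox6a1, the common form of subunit VIa and the most abundant of the complex by tags (chromosome 5, 115345642 to 115348981), stood at 205, 196 and 182 CPM in control and at 72.0, 95.8 and 83.0 CPM in cKO (-1.22 ± 0.17; edgeR adjusted p = 3.89e-05). The 3' ends of Cox6a1 and Cox6c each have 1 near-identical copy elsewhere, that of Cox5a has 2 and that of Cox7c has 4, so these counts are uncertain. Cox7b, a small membrane subunit encoded on the X chromosome, had the largest fall of the complex. It stood at 89.5, 69.7 and 77.4 CPM in control and at 19.8, 34.8 and 25.5 CPM in cKO, a fold change of -1.56 ± 0.20 (adjusted p = 2.18e-05). Cox4i1, the common form of the subunit that binds ATP, stood at 135, 114 and 102 CPM in control and at 57.6, 59.9 and 53.4 CPM in cKO (-1.04 ± 0.16). Cox7a2 (-1.43), Cox7c (-1.42), Cox6b1 (-1.15), Cox6c (-1.04), Cox5a (-0.9995), Cox8a (-0.96) and Cox5b (-0.69) fell too. Thus 10 of 14 tested members of the complex passed as lower, against 20.7% of all tested genes. Of the other 4, 2 rose and 2 did not pass.

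Those 4 were Cox6a2, Cox6b2, Cox7a1 and Cox7a2l, which are the tissue forms and the Cox7a relative. Cox6a2, the heart and skeletal muscle form of subunit VIa (chromosome 7, 128205435 to 128206387, minus strand), was counted 0, 1 and 1 times in control and 163, 95 and 204 times in cKO. Its levels were 0, 0.118 and 0.127 CPM in control, below the limit of a count of 0 there (3 counts, or 0.353 to 0.399 CPM), and 2.74, 2.86 and 3.40 CPM in cKO. It was called higher on the TMM scale (edgeR adjusted p = 3.41e-05), but it entered the test only because its cKO counts were high, so the call adds little to the counts themselves. Since its control counts are so few, the size is given from the summed counts, a ratio of 36.2 with an exact counting interval of 9.96 to 299.7. On library totals the ratio was 346 (95.2 to 2865). The gene lies inside Itgad, an integrin gene on the opposite strand that had 0 counts in every control library and 18, 8 and 19 counts in cKO. If the strand was ignored in counting, which is not given, reads of the 2 genes cannot be separated. Cox6a2 had more counts than Itgad in each cKO library, which does not decide whose reads they are. Of 7 muscle and heart markers, 1 had enough counts to be tested and did not pass (Mylpf, 0.28; edgeR adjusted p = 0.777), and Myh4 and Myh6 were at 0 in all libraries. The list summed to 0.531 to 1.27 CPM in control and 0.483 to 1.09 in cKO, from 21 and 118 counts.

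Cox6b2, the testis form of subunit VIb (chromosome 7, 4751792 to 4753094, minus strand), was counted 4, 8 and 8 times in control and 182, 72 and 183 times in cKO. That is 0.531, 0.941 and 1.02 CPM in control and 3.06, 2.17 and 3.05 CPM in cKO, and it rose by 1.73 ± 0.45 (log2, SE; edgeR adjusted p = 0.00581), again having met the filter only through cKO. Both genes were also higher on library totals, but so were all 45 tested members, and 96.4% of all tested genes passed as higher there. The shared sign therefore adds nothing to these 2 calls. Cox7a1, the heart and muscle form of subunit VIIa, was counted 0, 0 and 7 times in control and 60, 21 and 20 times in cKO. Its 7 control counts came from 1 library, and the fold change of 1.15 ± 1.01 did not pass (adjusted p = 0.378). Without control replicate 3 the remaining control libraries held 0 counts and Cox7a1 passed (0.0290); without control replicate 2 the fold change was 0.55. Cox4i2, with counts of 3, 4 and 2 (control) against 6, 8 and 15 (cKO), was too low to be tested. Cox8b had 1 count in control replicate 3 and 0 in the other libraries, and Cox7b2 and Cox8c had 0 counts in all 6 libraries. So of the 7 tissue forms, 2 rose, 1 did not pass, and 4 were not tested. The pericyte and smooth muscle list, which covers the cells known for Cox4i2, summed to 12.003 to 17.8 CPM in control and 21.7 to 24.0 CPM in cKO. Of its 7 tested genes, 2 rose (Acta2 and Myh11), near the 24.0% of all tested genes that rose. The median log2 fold change of the list was 0.25, against 0.10 for all tested genes.

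The levels of the tissue forms remained small beside those of the common forms. As a share within its family, which is free of library scaling, Cox6a2 took 0% (exact Clopper-Pearson 95% interval 0 to 0.239), 0.0601% (0.00152 to 0.334) and 0.0697% (0.00177 to 0.388) of the Cox6a1 and Cox6a2 counts in control. In cKO replicates 1, 2 and 3 it took 3.67% (3.14 to 4.27), 2.90% (2.35 to 3.53) and 3.93% (3.42 to 4.4998). Cox6b2 took 0.823% ± 0.330 of the Cox6b1 and Cox6b2 counts in control and 5.72% ± 1.52 in cKO (SD, n = 3 each). The groups of both did not overlap, and in 9 such shares compared each of these 2 had an exact 2-sided permutation p of 0.1, the smallest possible here (0.15 after Benjamini-Hochberg adjustment). A paralog counted towards the comparison of its family only with 10 or more counts over the 6 libraries. Cox6a2, with 2 counts in control and 462 in cKO, met this only through cKO, so its p-value adds little to the counts. Cox6b2 had 20 counts in control. Cox4i2 took 0.317% ± 0.0835 and 0.347% ± 0.153 of the Cox4 counts, with overlapping groups (exact permutation p = 0.9; 0.9 adjusted).

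The upstream sequences of Cox6a1 and Cox6b2 are shown as 1 widely expressed member that fell and 1 tissue form that rose on the TMM scale. They are from RefSeq (GRCm38.p6), 250 bases before the annotated start, 5' to 3' on the gene's strand, the minus strand for both. RefSeq promoters were matched for 38 of the 49 members, and none was matched for Cox6a2. Capitals mark matches on either strand to GCGCANGCG (a core of the NRF1 motif), CCGGAAG (the ETS motif that GABP binds), TNAAGGTCA (the estrogen-related receptor motif) or AAGATGGCG (the YY1 motif).
Cox6a1, chr5:115348959-115349208: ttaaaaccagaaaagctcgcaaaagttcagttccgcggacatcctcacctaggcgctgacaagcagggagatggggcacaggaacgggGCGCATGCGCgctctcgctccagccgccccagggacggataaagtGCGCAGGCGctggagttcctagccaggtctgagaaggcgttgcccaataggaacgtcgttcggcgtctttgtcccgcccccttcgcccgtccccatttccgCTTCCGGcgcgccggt
Cox6b2, chr7:4753095-4753344: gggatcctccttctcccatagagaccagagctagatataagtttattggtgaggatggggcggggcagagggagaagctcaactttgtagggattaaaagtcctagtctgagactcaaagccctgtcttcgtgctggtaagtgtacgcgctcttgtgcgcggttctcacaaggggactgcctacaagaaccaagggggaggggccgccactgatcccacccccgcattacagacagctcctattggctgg
The Cox6a1 window holds NRF1 motifs beginning 162 (with an overlapping match on the other strand at 161) and 117 bases before the start, and an ETS motif at 16 bases. GENCODE places the last 23 bases of this window, the ETS match included, inside an exon of Cox6a1. The window of Cox6b1, not printed, holds an ETS motif at 28 bases, also inside a GENCODE exon, and the Cox6b2 window holds none of the 4 motifs. Over the 38 members, 9 had the NRF1 motif (23.7%, against 5.86% of the 27025 genes with a promoter in the table), 9 the ETS motif (23.7% against 7.83%), 2 the YY1 motif (5.26% against 0.710%) and 1 the estrogen-related receptor motif (2.63% against 1.30%). The 27025 genes were not limited to those with enough counts to be tested here, so the 2 sets of genes are unlike. A match describes the letters in this window and is not evidence of binding.

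In the Cox7a family, Cox7a2l took a larger share of the counts in every cKO library than in any control library. Cox7a2 is the common form of subunit VIIa (chromosome 9, 79755361 to 79759878) and Cox7a2l encodes a related protein (chromosome 17, 83501918 to 83517330). Whether that protein joins complexes III and IV in mice of this strain cannot be read from tag counts. Cox7a2 stood at 144, 129 and 148 CPM in control and at 42.7, 64.4 and 49.01 CPM in cKO, while Cox7a2l stood at 78.0, 76.1 and 58.5 CPM in control and at 45.6, 72.5 and 50.7 CPM in cKO. The groups of Cox7a2l overlapped, and its fold change of -0.33 ± 0.19 did not pass (edgeR adjusted p = 0.169), though it did without cKO replicate 2 (-0.54; 0.00353). Within the family, Cox7a2l took 35.1% (exact Clopper-Pearson 95% interval 32.8 to 37.5), 37.1% (34.8 to 39.4) and 28.2% (26.0 to 30.4) in control. It took 51.1% (49.7 to 52.4), 52.7% (51.3 to 54.2) and 50.7% (49.4 to 51.9) in cKO. The difference was 18.0 percentage points, and here cKO replicate 2 lay with the other cKO libraries (exact 2-sided permutation p = 0.1, the smallest possible; 0.15 adjusted over 9 shares). The share of Cox7a2 differed by -18.5 points over the same libraries (p = 0.1 in the same exact permutation test; 0.15 adjusted), and Cox7a1 was at 1.13% or less of the family in every library.

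In complex V, 14 of 17 genes fell on the TMM scale, against 20.7% of all tested genes. The 17 include Atp5s and Atp5sl, which are not subunits of the synthase and did not pass. All 17 were higher on library totals, where 96.4% of all tested genes passed as higher. On the TMM scale 0 rose, with 0 at an unadjusted p under 0.05 in edgeR and 0 called higher by DESeq2. Atp5g1, Atp5g2 and Atp5g3 encode the same c subunit, whose ring turns as protons pass, each with its own import sequence. Atp5g1 (chromosome 11, 96068852 to 96075670) had the largest fall of all 45 tested members. It stood at 93.4, 70.4 and 73.1 CPM in control and at 11.5, 26.8 and 14.98 CPM in cKO, a fold change of -2.16 ± 0.28 (log2, SE; edgeR adjusted p = 8.83e-05). On library totals Atp5g1 had the smallest rise of the tested members, a ratio of means of 1.97. Atp5g3 (chromosome 2, 73908447 to 73911326) was the most abundant member of the complex by tags, at 276, 281 and 278 CPM in control and 93.9, 116 and 105 CPM in cKO (-1.41 ± 0.17). Atp5g2 (chromosome 15, 102662864 to 102672352) stood at 41.0, 38.5 and 31.9 CPM in control and at 21.6, 23.6 and 23.2 CPM in cKO (-0.70 ± 0.16; adjusted p = 0.00206). The 3' ends of Atp5g1 and Atp5g2 each have 2 near-identical copies in other annotated genes, so their counts are less certain than those of Atp5g3, which has 0.

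Within the family, the proportions of Atp5g1 and Atp5g2 differed between the groups. Atp5g1 took 22.7% (exact Clopper-Pearson 95% interval 21.3 to 24.2), 18.1% (16.8 to 19.4) and 19.1% (17.7 to 20.5) of the Atp5g counts in control and 9.06% (8.42 to 9.73), 16.1% (15.1 to 17.0) and 10.4% (9.80 to 11.1) in cKO replicates 1, 2 and 3. Every cKO library was below every control library, with cKO replicate 2 close to the lowest control. Atp5g2 took 9.39% ± 0.938 in control and 15.8% ± 1.46 in cKO (SD, n = 3 each), also without overlap. Both had an exact 2-sided permutation p of 0.1, the smallest possible (0.15 adjusted over 9 shares). Atp5g3 took 70.7% ± 2.93 and 72.4% ± 2.25, with overlapping groups (exact permutation p = 0.5; 0.563 adjusted). Without cKO replicate 2 the difference for Atp5g1 was -10.2 percentage points instead of -8.10.

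**Figure D4:**
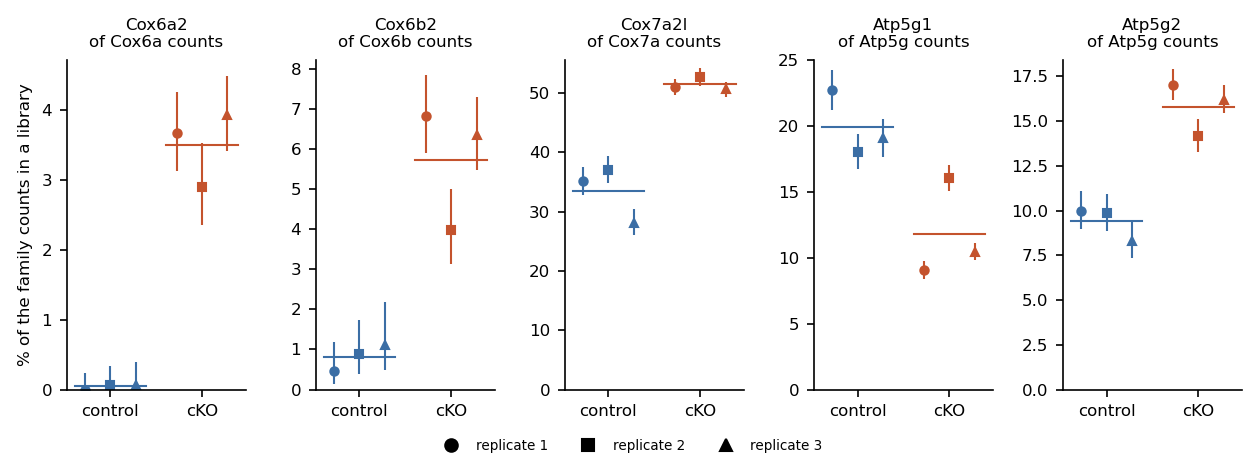
Share of the family counts taken by Cox6a2, Cox6b2, Cox7a2l, Atp5g1 and Atp5g2 in each library, with exact 95% counting intervals as bars and group means as lines; each panel has its own axis from 0. The cKO libraries lie above all controls for 4 genes and below them for Atp5g1, where cKO replicate 2 at 16.1% is nearest to the controls.

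The upstream sequences of Atp5g1 and Atp5g3 are shown because these genes code for 1 mature protein, while Atp5g1 had the largest fall and Atp5g3 the highest level. They are from RefSeq (GRCm38.p6), up to 250 bases before the annotated start, 5' to 3' on the minus strand, with capitals as above. For Atp5g1, 39 bases that the GENCODE annotation places in an exon are left out.
Atp5g1, chr11:96075671-96075881: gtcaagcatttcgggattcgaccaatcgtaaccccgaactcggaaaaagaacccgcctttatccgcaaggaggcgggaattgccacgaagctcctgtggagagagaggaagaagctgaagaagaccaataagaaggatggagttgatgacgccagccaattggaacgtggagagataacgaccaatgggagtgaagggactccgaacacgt
Atp5g3, chr2:73911327-73911576: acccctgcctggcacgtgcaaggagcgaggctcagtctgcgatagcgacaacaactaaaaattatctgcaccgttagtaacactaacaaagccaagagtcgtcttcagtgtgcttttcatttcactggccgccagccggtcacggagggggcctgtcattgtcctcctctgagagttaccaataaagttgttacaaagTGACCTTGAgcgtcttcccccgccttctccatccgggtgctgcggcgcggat
The Atp5g3 window holds the estrogen-related receptor motif, on the reverse strand and beginning 52 bases before the start, the 1 such match among the 38 members. The window of Atp5g2, not printed, holds an NRF1 motif on each strand, overlapping, from 42 bases, where GENCODE has an exon. The Atp5g1 window holds none of the 4 motifs. The windows thus differ among the 3 genes, and nothing about binding follows from that.

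The rest of complex V ranged from -1.45 for Atp5j to -0.27 for Atp5sl. In the catalytic head the fold changes were -1.17 for the beta subunit gene Atp5b, -1.07 for the gamma subunit gene Atp5c1, -0.77 for the alpha subunit gene Atp5a1, -0.77 for the delta subunit gene Atp5d and -1.28 for the epsilon subunit gene Atp5e. In the stalk and membrane part they were -1.45 for Atp5j, -1.33 for Atp5j2, -1.15 for Atp5o, -1.08 for Atp5f1, -1.02 for Atp5l and -0.94 for Atp5h. All of these passed the test as lower on the TMM scale and were higher on library totals. Gabpa overlaps Atp5j on the opposite strand, and Atp5l has 12 near-identical 3' ends elsewhere. Atp5h has 2 such copies, and Atp5j, Atp5j2 and Atp5k have 1 each. Atp5k, the e subunit at the dimer interface, stood at 35.3, 27.7 and 36.4 CPM in control and at 25.8, 28.8 and 22.8 CPM in cKO, with overlapping groups (-0.36 ± 0.17; edgeR adjusted p = 0.0912). It passed without cKO replicate 2 (-0.43; 0.0375). Atp5s, which encodes coupling factor B, and Atp5sl, listed as Dmac2 in the annotation and known as an assembly factor of complex I, are not subunits of the synthase. Atp5s stood at 0.664, 1.65 and 1.78 CPM in control and at 0.926, 0.995 and 0.7999 CPM in cKO (-0.60 ± 0.55; adjusted p = 0.401). Atp5sl stood at 7.04, 2.47 and 1.14 CPM in control and at 2.52, 3.19 and 3.08 CPM in cKO (-0.27 ± 0.48; adjusted p = 0.680), and its sign turned without control replicate 1 (0.69).

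Assembly factors build the complexes but do not stay in them. The list used here is broader than that. It also holds Foxred1, known for complex I but listed under complex V. Under complex IV it holds Lrpprc, Taco1 and Fastkd3, which act on mitochondrial mRNA, and Lrpprc is among the genes that fell (-1.13). On the TMM scale 9 of 38 tested fell, near the 20.7% of all genes. On library totals all 38 were higher, where 96.4% of all tested genes passed as higher. Their median was -0.40, against 0.10 for all tested genes on the TMM scale. In edgeR 0 rose, at an adjusted or an unadjusted p under 0.05, and 0 were called higher by DESeq2. Of all tested genes, 24.0% rose at an adjusted p under 0.05 in edgeR. The difference from the subunits, of which 36 of 45 fell, was not tested. For complex IV, 7 of 24 fell. The 3 with the smallest p were the haem A synthase gene Cox15 (-2.15 ± 0.21), Coa3 (-1.64 ± 0.20) and the copper chaperone gene Cox17 (-1.20 ± 0.20), and Cox11 (-1.44) had a larger fitted fall than Cox17. For complex III, 1 of 6 fell (Uqcc2, -1.23 ± 0.22), for complex V 1 of 4 (Tmem70, -0.87 ± 0.27), and for complex II 0 of 4 at an adjusted p under 0.05, with 1 of 4 (Sdhaf1) at an unadjusted p under 0.05 in edgeR and 0 of 4 called by DESeq2. Tmem70 lost its call without control replicate 2 (adjusted p = 0.146) or cKO replicate 1 (0.0507). Of 7 further chain proteins whose symbols fall outside the rule, 5 fell. They were the synthase subunit genes Atp5mpl (under its older clone symbol in the files; -1.33 ± 0.19) and Usmg5 (-1.33 ± 0.21), the complex IV subunit gene Ndufa4 (-1.11), Higd1a (-1.14) and Higd2a (-0.98). Atpif1, the inhibitor that stops the synthase from running in reverse, did not pass (-0.21 ± 0.16; adjusted p = 0.299), nor did Ndufa4l2 (-0.86; 0.0833). On library totals all 7 were higher.

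Of the regulators known for these genes, 1 of 9 tested fell and 1 rose on the TMM scale, no more than the 20.7% and 24.0% of all tested genes. The 1 that fell was Ppargc1a, the coactivator PGC-1α (-3.67 ± 0.90; edgeR adjusted p = 0.00427), from at most 26 counts in a library. It was -3.02 without cKO replicate 1, -4.26 without cKO replicate 2, and on library totals -0.59 (adjusted p = 0.466). Nrf1 rose (0.97 ± 0.32; adjusted p = 0.0239), a call lost when control replicate 1 (0.0634), control replicate 2 (0.0546), cKO replicate 1 (0.131) or cKO replicate 3 (0.0515) was left out. Esrra (0.13 ± 0.17), Gabpa (0.42 ± 0.41) and Ppargc1b (-0.83 ± 0.36) did not pass (adjusted p = 0.550, 0.434 and 0.0763), though Ppargc1b did without control replicate 2 (0.0268). Esrrg itself had 0 counts in all controls and 9 and 1 in cKO replicates 2 and 3, and a tag outside the deleted part would not check the genotype.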

How the data were processed

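RNA from 3 control and 3 cKO libraries was counted per gene. The authors deposited raw counts, 1 table per library; Bowtie2, edgeR and the build GRCm38 (mm10) are named in the submitters' processing notes, while the sources used here give no read trimming, counting tool or strand setting. Symbols in the files are cut at 12 characters. Genes were tested with edgeR 4.0.16 (R 4.3.3) by the quasi-likelihood test, with TMM factors, filterByExpr (minimum count 10) and Benjamini-Hochberg adjustment over 13132 genes at 0.05. The test was checked on simulated counts in which few genes changed, equally in both directions. Those counts held no shift in composition between the groups, so the check does not cover the scaling of libraries. Exact permutation tests and Clopper-Pearson 95% intervals used scipy 1.17.1. Intervals and floors (3 counts where a count is 0) cover counting error only. Without molecular identifiers, tags are not independent molecules. Library totals of 15.2 to 25.2 M left 27500 to 91257 counts on the members.

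Full values were given, per complex, for the most abundant member, the largest fall and the smallest change, for members that rose or did not pass, for isoform families and for Sdha to Sdhd, Cyc1 and Cycs, and for assembly factors by the smallest p, with up to 3 per list. Of the regulators, Esrra, Esrrg, Ppargc1a, Ppargc1b, Nrf1 and Gabpa were named. Uqcrfs1 was added after its values were seen. The members and lists were chosen with earlier results of these data known. Alternatives were other size factors, library totals, TMM without enzyme genes, DESeq2 1.42.0, other filters, a replicate block, each library left out, another denominator and fewer members. Positions are from GENCODE M21 (GRCm38; 48 of 49 members matched) and promoters from RefSeq. Copies were searched with the last 300 bases (95% identity over 80 bases).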

Additional observations from a re-analysis of the deposited data

How the results depend on the processing

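The scaling of libraries set the direction of nearly every result, and the cause was not tested. On library totals 0 members were called lower and 45 higher, against 53 and 12653 of all genes, and the median of the members was 2.20. There 0 assembly factors and 0 other chain proteins were called lower, and 38 and 7 higher. Among the members and the other genes whose fold changes were followed through every alternative, those that turned positive on library totals were Atp5g1 0.97, Cox15 1.04, Uqcrq 1.47, Uqcrfs1 1.53, Coa3 1.53, Cox7b 1.62, Atp5j 1.72, Sdhb 1.73, Cox7a2 1.77, Cox7c 1.77, Atp5g3 1.83, Usmg5 1.85, Atp5mpl 1.85, Atp5j2 1.90, Cyc1 1.94, Uqcc2 1.95, Atp5e 1.95, Cox17 1.9985, Cox6a1 2.01, Uqcrh 2.02, Uqcrb 2.05, Uqcrc2 2.07, Cox6b1 2.09, Atp5o 2.09, Atp5b 2.09, Uqcr11 2.10, Atp5c1 2.14, Atp5f1 2.16, Sdhc 2.20, Atp5l 2.20, Cox6c 2.22, Cox4i1 2.22, Cox5a 2.30, Atp5h 2.30, Cox8a 2.31, Higd2a 2.31, Tmem70 2.36, Cycs 2.46, Atp5a1 2.47, Ppargc1b 2.47, Atp5d 2.48, Atp5g2 2.56, Cox5b 2.61, Atp5s 2.62, Sdhd 2.72, Sdha 2.77, Uqcr10 2.80, Cox7a2l 2.86, Atp5k 2.88, Uqcrc1 2.99 and Atp5sl 3.01. The share of library counts, higher in cKO, was lower in cKO as percent of the counts outside the enzyme list, Rn45s and Casp9, by -0.030 points for complex II, -0.144 for III, -0.00357 for cytochrome c, -0.168 for IV, -0.247 for V and -0.593 for all members.

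With a filter of 10 CPM in 3 or more libraries, 0 members were called higher, since Cox6a2 and Cox6b2 were not tested there, and 1425 and 1443 of all genes were called lower and higher. Without the 5 members of highest mean count, the difference in composition was 0.69 points for complex III and -1.83 for complex V. Leaving out 1 library at a time gave 34 to 39 members called lower, 2 to 3 higher, 0 to 2 assembly factors called higher (2 without control replicate 3), a difference of -0.67 to 0.27 points for complex V (above 0 without control replicate 3 and, at 0.20, without cKO replicate 2) and of -0.029 to 0.116 points for the share of Cox4i2, and a fold change of -0.68 to 0.69 for Atp5sl. DESeq2, its size factors in edgeR and TMM without the enzyme genes each gave 36 members lower and 2 higher. The labels give both groups the same replicate numbers; same-numbered libraries correlated at 0.014, -0.030 and -0.0077, so the numbers were not taken as pairs, and with the replicate block 36 members were called lower and 2 higher and no call changed among the named genes. Where members have few counts, as in Cox7a1, Atp5s and Cox4i2, depth limits what can be seen.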
